A study of Mus musculus with 2 samples.

Results

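Matrix metalloproteinases (MMPs), ADAMs, ADAMTS proteases and the ADAMTS-like proteins were followed in mouse liver that lacks MMP-14. The genes were those on the array with a symbol of Mmp, Adam, Adamts or Adamtsl, a number and an optional letter, leaving out Mmp14, Mmp15, Mmp16 and Mmp2. By this rule 69 of the 16390 named genes on the array were members, 18 of them Mmp, 29 Adam, 18 Adamts and 4 Adamtsl genes. The rule used the name alone and no measured value. All members had 1 probe with 1 spot, except Adam26a, which had 2 probes.

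The P1 liver array compared MMP-14 KO with wild-type whole liver, each a mixture of RNA from 2 livers. The labels call these livers P1 (postnatal day 1), whereas the design text places them late in embryonic life, and this conflict was not settled. The E14 Dlk+ array compared MMP-14 KO with wild-type cells sorted from fetal liver as Dlk+CD45-CD71-Ter119-, with 3 livers and 100000 cells per genotype, at embryonic day 14 in the labels. The labels name no other treatment, and neither they nor the design text give the knockout allele, the strain or the sex.

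On both arrays the knockout was read in Cy3 and the wild type in Cy5, with no dye swap. Each comparison had a single array, so with this number of arrays animals give no error for any value, no test was possible, and dye and genotype cannot be told apart. The log2 ratio of a gene is its knockout over its wild-type signal after background correction and loess scaling. A channel was called detectable above the mean of the blank spots plus 2 SD, which was 87.0 for the knockout and 50.5 for the wild type in P1 liver, and 85.1 for the knockout and 44.3 for the wild type in E14 cells. Signals are spot intensities before scaling. Blank-subtracted signals of the knockout channel exceeded those of the wild-type channel by a median factor of 1.35 over the probes of the P1 array and 2.55 over those of the E14 array, so raw signals of the 2 channels are not equal where the ratio is 0. Probes differ in brightness, and no gene's signal is set against another gene's. As a size limit, 1.5-fold (0.58 on the log2 scale) was used. The ratios of members named by rule were also computed under 9 alternatives (8 for Mmp9), which are other treatments of the background, the scaling, the detection limit and the probes. For these members only the treatments of background and scaling could change a ratio. The other alternatives repeat the reported value, so every count of alternatives given for a gene includes repeats that are no check of it.

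MMPs are zinc-dependent proteases that cut collagens and other matrix proteins, most of them secreted as inactive precursors and a few, such as MMP-14, anchored to the membrane. Many ADAMs are membrane-anchored proteases that shed the outer parts of receptors and ligands, among them Notch, tumour necrosis factor and ligands of the EGF receptor. ADAMTS proteases are secreted, carry thrombospondin repeats and cut proteoglycans, procollagens and von Willebrand factor, while ADAMTS-like proteins lack the protease domain. In liver, much of this repertoire is known from stellate cells, endothelium and leukocytes, and TIMP proteins inhibit it.

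Mmp14 itself had signals of 104 in the knockout and 161 in the wild type in P1 liver, and 132 in the knockout and 131 in the wild type in E14 cells. Its log2 ratio was -1.30 in P1 liver and -1.13 in E14 cells. When normexp took in the local background, these values were -0.27 and -0.45, and in the authors' deposited table they were -2.83 and -2.13. Whether its probe lies inside the deleted stretch is not known here, so these ratios check the labels only in part. Mmp2, whose precursor MMP-14 activates, had a ratio of -1.08 in P1 liver and 0.09 in E14 cells. With normexp on the local background its ratios were -0.15 and 0.56, and in the authors' deposited table -1.88 and 0.06. Hepatocyte genes were detectable in all 4 RNA pools (9 of 9 markers on each array). Of these, Afp, Alb, Ttr and Apoa1 had whole-number readings at the top of the range in at least 1 channel of each array, and no fold is given for them. In the sorted E14 cells Dlk1 had signals of 11869 in the knockout and 4971 in the wild type. Tfrc, the gene of CD71, had 518 in the knockout and 196 in the wild type, well above the thresholds although the sort took CD71- cells. Ptprc, the gene of CD45, stood near the threshold there, with 88.9 in the knockout and 43.8 in the wild type, below the limit in the wild type. The P1 array carried lung epithelial genes in its wild-type channel: 11 of 16 listed markers were detectable in the knockout and 16 of 16 in the wild type, with a summed signal above blank of 763 in the knockout and 41383 in the wild type. Sftpb, Scgb3a2, Lamp3, Nkx2-1 and Cxcl15 were not detectable in the knockout. In E14 cells 9 of the 16 were detectable in the knockout and 9 in the wild type, with sums of 344 and 135. The sums are not scaled for the brighter knockout channel.

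Regulatory sequence is shown for Adamts1 and Mmp11, which were at least 1.5-fold changed on an array, for Adamtsl2, chosen after its value was seen, and for a promoter feature that many Mmp genes share. Adamts15, also past that size in P1 liver, is named only. The 250 bases before each gene's start are given 5′ to 3′ from RefSeq (GRCm38.p6), on the minus strand for Adamts1 (chr16:85803114-85803363) and Mmp11 (chr10:75932503-75932752) and on the plus strand for Adamtsl2 (chr2:27079129-27079378). Capitals mark GC boxes, bound by Sp1-like factors and searched as GGGCGG. They also mark TATA boxes, which place the transcription start in many promoters and were searched as TATAAA. AP-1 sites, bound by Fos and Jun proteins, were searched widely with the letters TGANTCA, where N is any base and not only the usual C or G. Both strands were searched.
Adamts1: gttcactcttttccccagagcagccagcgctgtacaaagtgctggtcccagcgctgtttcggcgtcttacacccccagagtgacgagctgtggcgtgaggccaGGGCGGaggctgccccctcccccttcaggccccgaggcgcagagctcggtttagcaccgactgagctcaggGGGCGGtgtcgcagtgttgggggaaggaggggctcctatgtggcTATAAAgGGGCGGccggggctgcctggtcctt
Mmp11: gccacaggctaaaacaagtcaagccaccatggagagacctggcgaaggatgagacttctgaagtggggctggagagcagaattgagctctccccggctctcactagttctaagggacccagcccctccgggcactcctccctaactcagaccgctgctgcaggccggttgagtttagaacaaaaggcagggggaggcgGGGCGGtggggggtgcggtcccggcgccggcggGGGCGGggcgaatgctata
Adamtsl2: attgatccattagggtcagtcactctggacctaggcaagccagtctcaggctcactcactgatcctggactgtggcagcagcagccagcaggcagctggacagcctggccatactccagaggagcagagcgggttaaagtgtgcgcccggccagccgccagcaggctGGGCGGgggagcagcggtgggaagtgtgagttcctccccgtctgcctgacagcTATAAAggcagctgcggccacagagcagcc
The 3 windows held 3, 2 and 1 GC boxes and no AP-1 site. Adam19, whose P1 ratio (-0.58) was about that of Adamtsl2, has 3 windows in the table, of which 1 held an AP-1 site. Adamts1 and Adamtsl2 each had 1 TATA box, which Mmp11 had not. Their GC content was 65.6%, 63.2% and 62.8%, against a median of 52.4% over the 32851 promoter windows of the table.

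Promoter windows were at hand for 42 of the 69 members. An AP-1 site stood in 12 of these 42 genes (12 of their 47 windows), against 6.75% of all windows. In Adam20, Adam25 and Mmp20 it read TGAATCA, which only this wide search takes as an AP-1 site. Of the 12 genes, 8 lay in a run of 10 neighbouring Mmp genes, of which 9 were on the array. The window of Mmp8, also in that run, did not hold these letters. The sites of these 8 genes are shown with 12 bases on each side, 5′ to 3′ in the direction of the gene (GRCm38.p6, minus strand for Mmp1b and plus strand for the others), with the site in capitals. That of Adam19, on the plus strand, is added.
Adam19, chr11:46055841-46055871: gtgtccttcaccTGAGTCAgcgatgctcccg
Mmp13, chr9:7272467-7272497: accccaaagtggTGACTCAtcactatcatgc
Mmp12, chr9:7347318-7347348: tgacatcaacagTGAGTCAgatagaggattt
Mmp1b, chr9:7388101-7388131: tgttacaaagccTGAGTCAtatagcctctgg
Mmp3, chr9:7445764-7445794: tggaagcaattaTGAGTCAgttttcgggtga
Mmp1a, chr9:7464056-7464086: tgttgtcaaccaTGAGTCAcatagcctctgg
Mmp10, chr9:7502267-7502297: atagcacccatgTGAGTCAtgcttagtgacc
Mmp20, chr9:7628124-7628154: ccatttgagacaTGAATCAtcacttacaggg
Mmp7, chr9:7692015-7692045: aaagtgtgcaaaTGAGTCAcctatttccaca
The Mmp sites stood between 35 (Mmp13) and 95 bases (Mmp20) before the gene's start. Of the 12 genes with an AP-1 site, 4 were detectable in both channels of at least 1 array, namely Adam19, Adam29, Mmp3 and Mmp7, against 22 of the 30 without. Of the 17 genes with a GC box 14 were detectable in this sense, against 12 of the 25 without. Both splits overlap with the run of Mmp genes. Of its 8 genes with an AP-1 site 2 were detectable, and all 9 on the array lacked a GC box, with 3 detectable. Detectability by motif over all genes was not computed, so no trait of the family can be read from these splits. GC boxes stood in 32.7% and TATA boxes in 12.4% of all windows. These counts describe letters in a window and were not tested.

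Roughly as many members were readable in whole liver as in sorted cells. In P1 liver 38 of 69 members were detectable in both channels (55.1%), against 77.6% of all named genes, and in E14 cells 39 of 69 (56.5%), against 77.5%. Both channels of both arrays were detectable for 34 members, and 17 members were not detectable in any channel: Adam18, Adam1b, Adam20, Adam21, Adam3, Adam30, Adam6a, Adam8, Adamts12, Adamts18, Mmp10, Mmp12, Mmp13, Mmp1a, Mmp20, Mmp21 and Mmp25. Among these are the collagenase gene Mmp13, the macrophage elastase gene Mmp12 and testis-expressed Adam genes. Mmp13 had signals of 84.1 in the knockout and 49.8 in the wild type in P1 liver, and 80.7 in the knockout and 41.7 in the wild type in E14 cells. Mmp12 had 82.2 in the knockout and 49.5 in the wild type in P1 liver, and 82.3 in the knockout and 44.1 in the wild type in E14 cells. These readings lie at the level of the blank spots, so a difference in these genes could not be detected here.

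**Figure D1:**
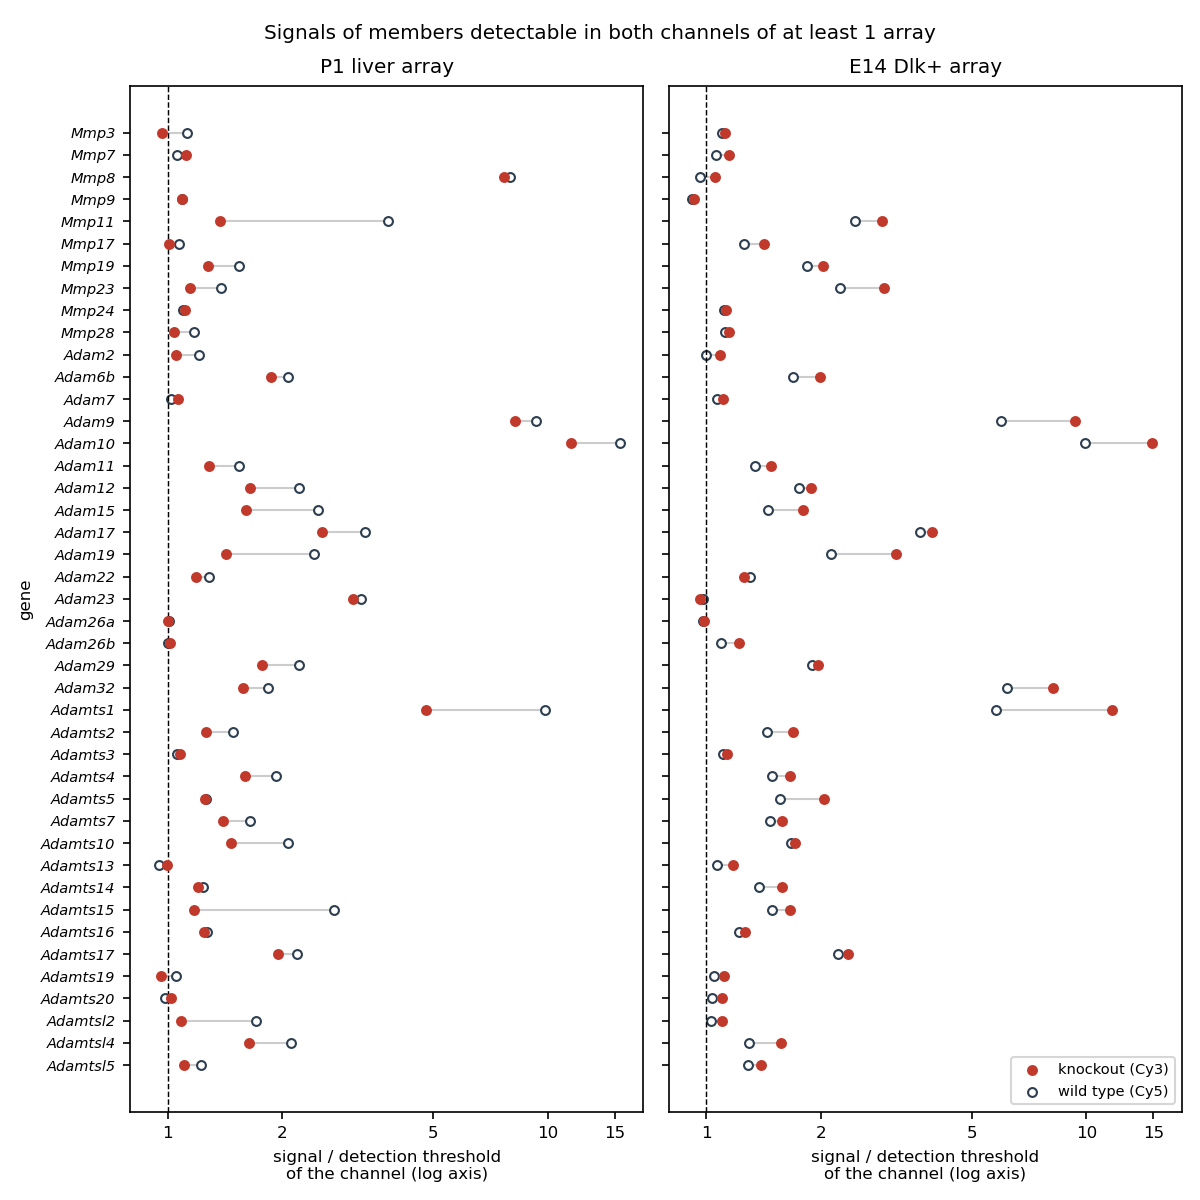
Signal of each of the 43 members detectable in both channels of at least 1 array, divided by the detection threshold of its channel (log axis), for the P1 liver array (left) and the E14 Dlk+ array (right). Filled points are the knockout (Cy3) and open points the wild type (Cy5), and the dashed line is the threshold. Most members lie within a few multiples of the threshold, and Mmp11, Adamts15 and Adamts1 have the widest gaps between channels in P1 liver.

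Many readable members were dim. Signals under 1.5 times the threshold in both channels were read for 16 of the 38 in P1 liver (42.1%), against 30.6% of all readable genes, and for 17 of the 39 in E14 cells (43.6%), against 31.3%. Ratios of the blank spots, which carry no probe, had an SD of 0.074 in P1 liver and 0.056 in E14 cells. Where a gene had several detectable probes (139 genes), the pooled SD between its probes was 0.23 in P1 liver and 0.12 in E14 cells. In P1 liver 4 members were detectable in the knockout channel only (5.8%, against 3.28% of all genes) and 6 in the wild-type channel only (8.7%, against 3.63%). In E14 cells 7 were detectable in the knockout channel only (10.1%, against 7.35%) and 0 in the wild-type channel only (0.403% of all genes). In P1 liver these were Adam26b, Adamts6, Adamts20 and Adamtsl1 in the knockout, and Adam24, Adam28, Adam33, Adamts8, Adamts19 and Mmp3 in the wild type. In E14 cells they were Adam2, Adam5, Adam25, Adam28, Adamts8, Mmp1b and Mmp8. The bounds computed for them were all under 1.5-fold. The highest was Adamts8 in P1 liver, 1.28-fold lower in the knockout, with signals of 85.2 in the knockout and 63.7 in the wild type. This value equals its measured ratio, which rests on an undetectable knockout reading, so it is no guaranteed minimum. Next came Mmp3, the stromelysin-1 gene, 1.17-fold lower in the knockout P1 liver when set against the lowest detectable signal (84.2 in the knockout and 56.9 in the wild type).

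In whole liver labelled P1, the family leaned to lower signal in the knockout, with 3 members past the size limit. Mmp11 (-1.30), Adamts15 (-1.10) and Adamts1 (-0.83) were at least 1.5-fold lower, and 0 of the 38 readable members were at least 1.5-fold higher. The members lower by that size were 7.89% of those readable, against 4.12% of all 12715 readable genes, while 2.84% of all genes were as much higher. With 38 members that difference rests on few genes. The median log2 ratio of the members was -0.08, against -0.00 over all genes, and lay between -0.27 and -0.04 under the alternatives. Of the members, 24 of 38 (63.2%) were below 0, against 50.4% of all genes. In bulk samples fewer cells of a type and less RNA per cell cannot be told apart.

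Among the secreted MMPs, Mmp11 stood apart in P1 liver. This gene encodes stromelysin-3, a protease activated inside the cell by furin and known from stromal cells. It had signals of 119.7 in the knockout and 192 in the wild type in P1 liver, a 2.47-fold lower level in the knockout after scaling and the 97th lowest ratio of 12715. In E14 cells it had 246 in the knockout and 109 in the wild type, a ratio of 0.02. The other 8 readable Mmp genes of the P1 array lay between -0.17 (Mmp23) and 0.18 (Mmp8).

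Mmp8 encodes the collagenase stored in neutrophil granules. It had signals of 668 in the knockout and 401 in the wild type in P1 liver, and 89.9 in the knockout and 42.6 in the wild type in E14 cells, where it was below the limit in the wild type. The gelatinase gene Mmp9, also known from neutrophils, had 95.1 in the knockout and 55.0 in the wild type in P1 liver, and 79.3 in the knockout and 40.6 in the wild type in E14 cells. Both genes were readable in whole liver and not in both channels of sorted cells. Their P1 ratios were 0.18, with the same sign under 7 of 9 alternatives, and 0.06. All 9 neutrophil markers on the array were detectable in all channels, with summed signals above blank of 51605 in the knockout and 47673 in the wild type in P1 liver, against 480 and 123 in E14 cells. The sums are not scaled for the brighter knockout channel. In P1 liver 2 of the 9 markers were at least 1.5-fold lower in the knockout, against 4.12% of all readable genes. Their median was -0.32, with 0 of the 9 above 0. Their part in the Mmp8 and Mmp9 readings was not tested.

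The readable membrane-anchored MMPs other than Mmp14, Mmp15 and Mmp16 had small ratios as reported. Mmp23, which is released from its membrane anchor by furin-like cleavage, had signals of 99.8 in the knockout and 69.5 in the wild type in P1 liver (ratio -0.17), and 249.9 in the knockout and 99.6 in the wild type in E14 cells (0.17). Its P1 ratio passed 1.5-fold under 2 of 9 alternatives, reaching -0.89 with the local background subtracted, and its E14 ratio under 1 of 9, at 1.15. The genes of 2 GPI- or membrane-anchored MMPs were dim: Mmp17 had ratios of -0.08 in P1 liver and 0.07 in E14 cells, and Mmp24 had 0.08 and -0.06. Mmp25 was not detectable. The remaining secreted MMPs Mmp19, Mmp28 and Mmp7 lay between -0.14 and 0.14 in P1 liver, and these and Mmp3 between -0.05 and 0.04 in E14 cells.

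Most ADAM sheddases were readable in both samples, with ratios under 1.5-fold. Of the 9 grouped here, 6 were readable on both arrays (Adam9, Adam10, Adam12, Adam15, Adam17 and Adam19), with a median of -0.23 in P1 liver and 0.21 in E14 cells. Adam8, Adam28 and Adam33 were not readable in both channels of either array. In P1 liver 5 of the 6 were below 0, and in E14 cells 4 of the 6 were above 0. None reached 1.5-fold on either array in the reported values.

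Adam10, the main sheddase of Notch receptors, had signals of 1002 in the knockout and 781 in the wild type in P1 liver, and 1264 in the knockout and 439 in the wild type in E14 cells. Its ratio was -0.25 in P1 liver, against the SD of 0.23 given above for probes of one gene, and 0.26 in E14 cells. The P1 sign was the same under 8 of 9 alternatives. Adam17, which sheds tumour necrosis factor and ligands of the EGF receptor, had 221 in the knockout and 167 in the wild type in P1 liver, and 333 in the knockout and 161 in the wild type in E14 cells. Its ratios were -0.11, with the same sign under 6 of 9 alternatives (range -0.21 to 0.17), and -0.16, with the same sign under 8 of 9. Those 6 and 8 include the alternatives that could not change the ratio. The P1 ratio of Adam17 was positive with median centring (0.02), normexp on the local background (0.11) and the local background subtracted (0.17).

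Adam9, a widely expressed sheddase, had signals of 713 in the knockout and 471 in the wild type in P1 liver, and 796 in the knockout and 264 in the wild type in E14 cells. Its ratio was 0.03 in P1 liver and 0.34 in E14 cells, the 236th highest of 12705 there. Adam15 had signals of 139.8 in the knockout and 125 in the wild type in P1 liver, and 153 in the knockout and 64.2 in the wild type in E14 cells. Its ratios were -0.42, which passed 1.5-fold under 3 of 9 alternatives, and 0.17. Adam12, known from stellate cells and fusing myoblasts, had ratios of -0.21 and -0.06.

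Adam19, named after its values were seen, lay just under the size limit. This sheddase gene, known for its part in heart valve development, had signals of 124 in the knockout and 123 in the wild type in P1 liver, and 269 in the knockout and 94.4 in the wild type in E14 cells. Its ratios were -0.58 and 0.35. Under 6 other treatments of background and scaling the P1 ratio lay between -1.28 (the authors' deposited table) and -0.26 (normexp with the local background), and the E14 ratio between 0.31 and 1.04.

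Adam11, Adam22 and Adam23, which lack protease activity, are adhesion proteins known from neurons. Adam11 had ratios of -0.12 in P1 liver and 0.02 in E14 cells, and Adam22 had -0.02 and -0.15. Adam23, chosen after its values were seen, had signals of 268 in the knockout and 162 in the wild type in P1 liver, the highest member ratio there (0.22), and 81.9 in the knockout and 43.5 in the wild type in E14 cells, where it was not detectable. Adam32, known from testis, had signals of 137 in the knockout and 92.7 in the wild type in P1 liver, and 694 in the knockout and 273 in the wild type in E14 cells, with ratios of -0.01 and 0.09. Its E14 ratio reached 5.03 when the local background was subtracted, and it passed 1.5-fold under 3 of 9 alternatives. Adam32 and Adam9 are neighbouring genes. Of the 17 members known from the reproductive tract, 6 were readable on each array, with ratios between -0.16 and 0.10 in P1 liver and between -0.12 and 0.09 in E14 cells. Adam6b, Adam7, Adam26a, Adam29 and Adam32 were readable on both arrays, Adam2 in P1 liver alone and Adam26b in E14 cells alone. Adam26a and Adam26b, and Mmp1a and Mmp1b, are close copies, and whether their probes tell them apart was not tested.

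**Figure D2:**
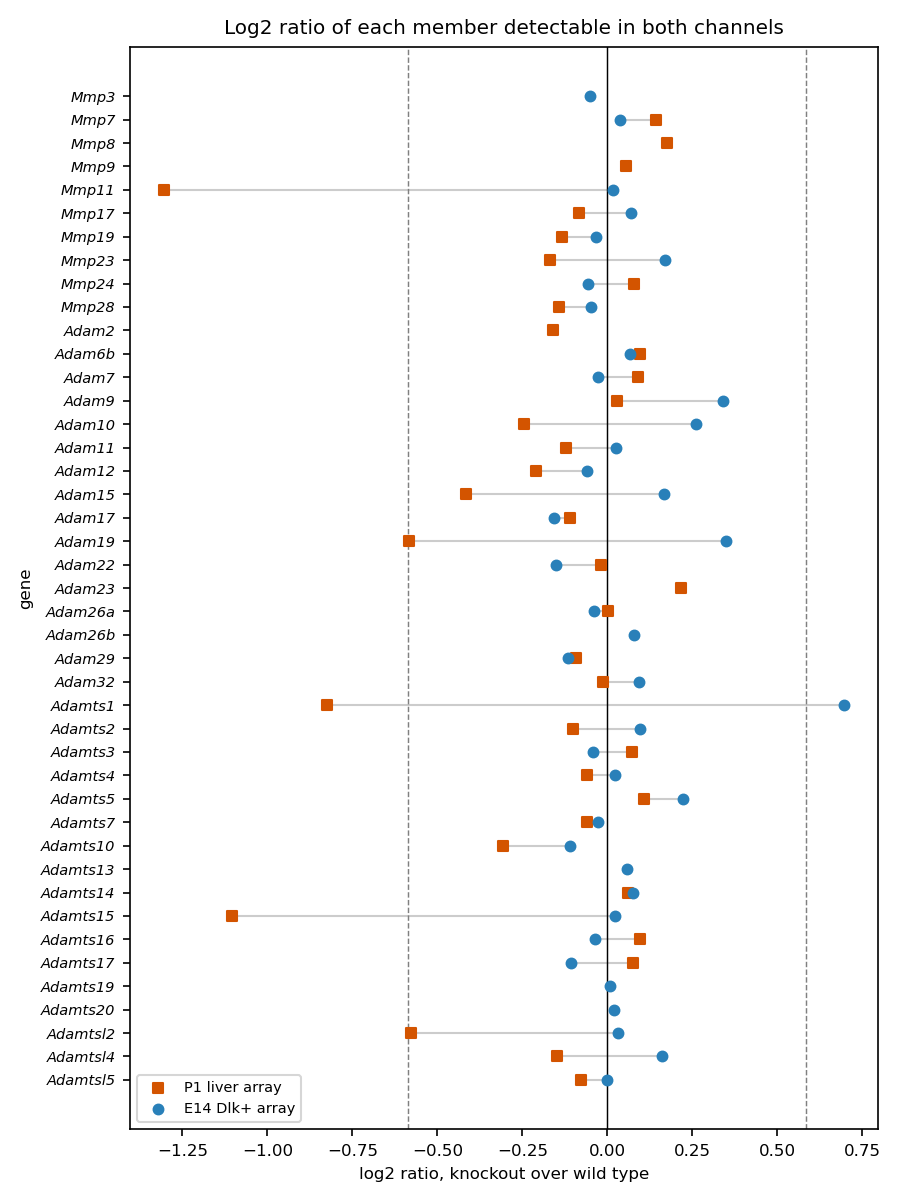
Log2 ratio of knockout over wild type for each member readable in both channels of an array, with squares for the P1 liver array and circles for the E14 Dlk+ array. Grey lines join the values of a gene, and dashed lines mark 1.5-fold. Most members lie near 0 on both arrays, and Mmp11 (-1.30), Adamts15 (-1.10) and Adamts1 (-0.83) lie farthest left in P1 liver.

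Among the ADAMTS proteases, the group that cuts the large proteoglycans held the other large ratios. Of its 6 members on the array, 4 were readable in P1 liver, with a median of -0.44, and 5 in E14 cells, with a median of 0.02. The group has few members and its median in P1 liver rests on Adamts1 and Adamts15.

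Adamts1, which cuts versican and aggrecan and binds VEGF, had signals of 415 in the knockout and 495 in the wild type in P1 liver. In E14 cells it had 996 in the knockout and 257 in the wild type. It was 1.77-fold lower in the knockout P1 liver (-0.83, the 274th lowest of 12715) and 1.62-fold higher in the sorted knockout E14 cells (0.70, the 15th highest of 12705). It was the only member at least 1.5-fold higher in E14 cells (1 of 39, 2.56%), where 0.307% of all readable genes reached that size and 0.22% were as much lower. In P1 liver its ratio was -0.52 with median centring in place of loess and -0.53 with the local background used, both short of 1.5-fold.

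Adamts15, which also cuts versican and aggrecan, had signals of 102 in the knockout and 138 in the wild type in P1 liver, and 141 in the knockout and 65.8 in the wild type in E14 cells. It was 2.15-fold lower in the knockout P1 liver (-1.10, the 147th lowest ratio) and its E14 ratio was 0.02. Its knockout signal in P1 liver was 1.17 times the threshold. With the local background used the P1 ratio was -0.54, and in the authors' deposited table it was -2.65. Adamts8, the neighbour of Adamts15 on the chromosome and another member of the group, was the gene with the value of 1.28-fold given above.

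Adamts5, the neighbour of Adamts1 and a main aggrecanase of cartilage, had ratios of 0.11 in P1 liver and 0.22 in E14 cells. Adamts4, the other main aggrecanase, had -0.06 and 0.02. Adamts20 had signals near the threshold and was readable in E14 cells only, at 0.02.

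The other ADAMTS genes had ratios under 1.5-fold on both arrays. The procollagen N-proteinase genes Adamts2, Adamts3 and Adamts14, whose products trim the ends of fibrillar procollagens, lay between -0.10 and 0.07 in P1 liver and between -0.04 and 0.09 in E14 cells. Adamts10, whose product binds fibrillin microfibrils, had signals of 127 in the knockout and 104 in the wild type in P1 liver, and 146 in the knockout and 73.9 in the wild type in E14 cells, with ratios of -0.31 and -0.11. Adamts17 had signals of 169 in the knockout and 111 in the wild type in P1 liver, and 201 in the knockout and 98.2 in the wild type in E14 cells, with ratios of 0.08 and -0.11. Adamts13, the von Willebrand factor protease made by hepatic stellate cells, had 86.9 in the knockout and 48.0 in the wild type in P1 liver, below both limits. In E14 cells it had 99.9 in the knockout and 47.2 in the wild type, which gave 0.06, while the authors' deposited table has 0.60.

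Adamts7, whose product cuts cartilage oligomeric matrix protein, had ratios of -0.06 in P1 liver and -0.03 in E14 cells. Adamts16 had 0.09 and -0.04, and Adamts19 was readable in E14 cells alone, at 0.01.

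The ADAMTS-like genes were dim. Adamtsl2, whose product binds fibrillin and the latent TGF-beta binding proteins, had signals of 94.3 in the knockout and 86.3 in the wild type in P1 liver, and 93.7 in the knockout and 45.4 in the wild type in E14 cells. Its ratios were -0.58 and 0.03, and in the authors' deposited table -2.14 and 0.69. The P1 ratio passed 1.5-fold under 4 of 9 alternatives. Adamtsl4, which also binds fibrillin, had signals of 142 in the knockout and 106 in the wild type in P1 liver, and 134 in the knockout and 57.2 in the wild type in E14 cells, with ratios of -0.15 and 0.16. Adamtsl5 had signals of 96.2 in the knockout and 61.8 in the wild type in P1 liver, and 118 in the knockout and 57.1 in the wild type in E14 cells, with ratios of -0.08 and 0.00. Adamtsl1 was readable in the knockout channel of the P1 array only.

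In the sorted E14 cells the members lay about as close to 0 as all readable genes. Of the 39 readable members, 34 (87.2%) lay within 0.2 of 0, against 90.0% of all readable genes, and in P1 liver 28 of 38 (73.7%), against 64.4%. The E14 median was 0.02, against 0.01 over all genes, with 24 of 39 above 0 (61.5%, against 53.1%). The lowest member ratio in E14 cells was that of Adam17 (-0.16), and 0 of 39 were at least 1.5-fold lower.

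Markers of other cell types differed between the channels beside these genes. Over all readable genes, 4.12% were at least 1.5-fold lower and 2.84% higher in P1 liver, and 0.22% and 0.307% in E14 cells. In P1 liver, 4 of 14 stellate and fibroblast markers were at least 1.5-fold lower (median -0.27), with all 14 detectable in both channels and a summed signal above blank of 3149 in the knockout and 4397 in the wild type. Of 11 endothelial markers, 9 were readable in the knockout and 11 in the wild type, 5 were at least 1.5-fold lower, and the sums were 3162 and 4060. Cdh5 and Emcn were not detectable in the knockout. Lower by the same size in P1 liver were also all 11 lung epithelial markers readable in both channels, of 16 listed. So were 4 of 6 erythroid markers and 2 of the 5 readable mesothelial markers (7 listed). The same held for 0 of 11 macrophage markers and 0 of the 5 hepatocyte markers not at the top of the range. These shifts stood beside the lower Mmp11, Adamts15 and Adamts1, and their part in those ratios was not tested. In E14 cells, 4 of the 14 stellate and fibroblast markers were at least 1.5-fold higher (median 0.45), beside the higher Adamts1. Their sums were 25857 in the knockout and 7520 in the wild type. None of the sums is scaled between channels. The knockout channel read higher by a median factor of 1.35 in P1 liver and 2.55 in E14 cells. In the same cells 2 of 7 mesothelial markers and 0 of the 5 hepatocyte markers not at the top of the range were at least 1.5-fold lower. The part of these markers in the Adamts1 ratio was not tested.

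The 2 arrays gave different ratios for the same genes. Over the 34 members readable on both, the P1 ratio was the lower in 23 (67.6%, against 50.7% of all genes) and the higher in 11, with a median difference of -0.10 (P1 minus E14), against -0.00 over 12005 genes. A total of 15 members were below 0 in P1 liver and above 0 in E14 cells (44.1%, against 23.7% of all genes), and 6 the other way round (17.6%, against 19.8%). The 3 widest differences were those of Adamts1 (-1.52), Mmp11 (-1.32) and Adamts15 (-1.13), followed by Adam19 (-0.93), Adamtsl2 (-0.61), Adam15 (-0.58) and Adam10 (-0.51). These 3 were 8.82% of the 34 members, against 1.77% of all genes with a P1 ratio lower by 1 or more. Adamts1 was the only member past 1.5-fold in opposite directions, a pattern that 0.125% of genes had. Across the members the ratios of the 2 arrays had a Pearson coefficient of -0.31, and of -0.12 without Adamts1, against 0.084 over all 12005 genes, on arrays of the same dye layout. The samples differ in stage and in kind, so none of these differences can be ascribed to stage.

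**Figure D3:**
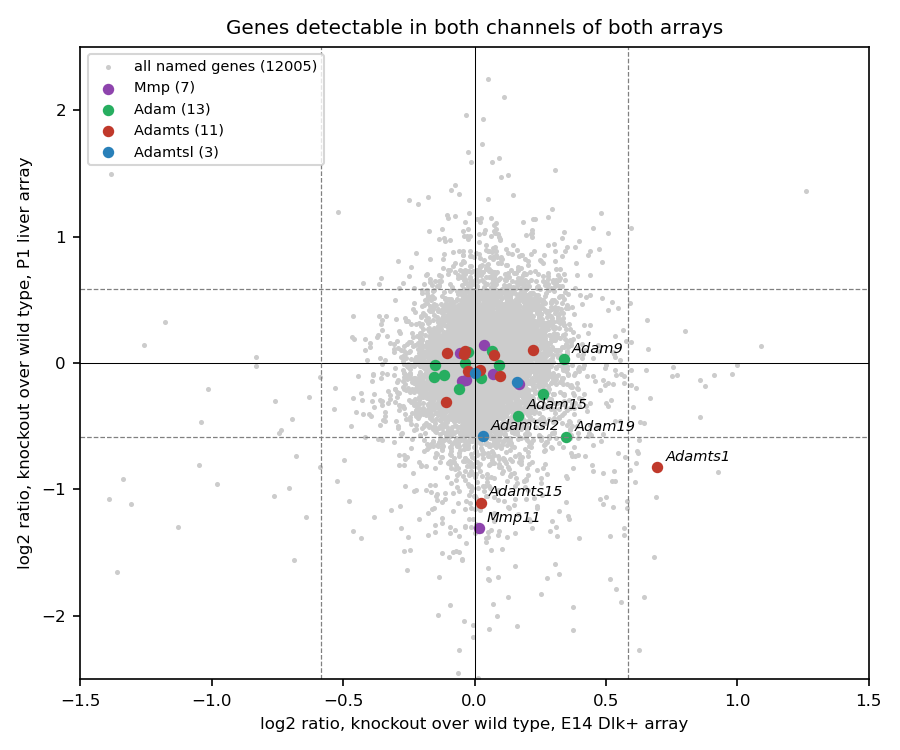
Log2 ratio of knockout over wild type on the P1 liver array (vertical) against the E14 Dlk+ array (horizontal) for 12005 genes readable on both (grey) and the 34 members among them, coloured by class. Dashed lines mark 1.5-fold, and 17 genes lie outside the plotted range. Adamts1 is in the lower right corner, while Mmp11 and Adamts15 are low in P1 liver only.

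The size of a ratio depended on how dim spots were treated. Mmp11 in P1 liver was between -2.39 (the authors' deposited table) and -1.12 (local background used) and passed 1.5-fold under each of the 9 alternatives. Adamts1 was positive in E14 cells and negative in P1 liver under all 9. Adamts15 in P1 liver passed under 8 of the 9. The highest E14 ratio of Adamts1, 1.33, came with median centring, where the median of all genes was 0.28 in E14 cells and 0.05 in P1 liver.

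**Figure D4:**
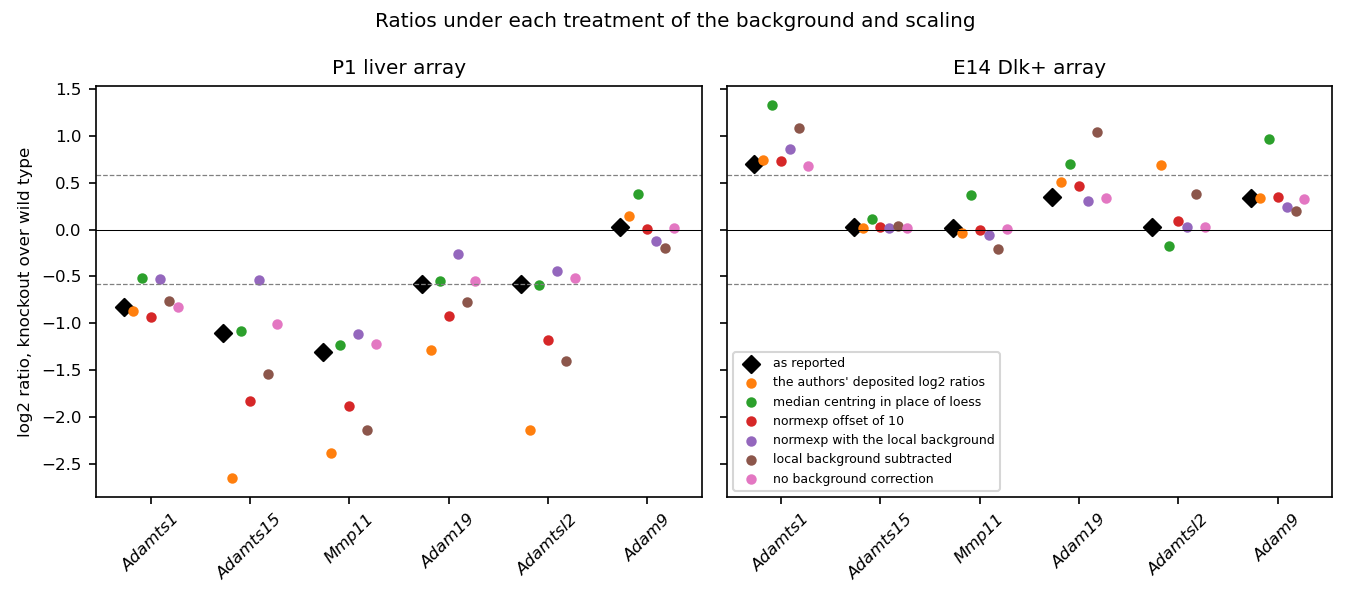
Log2 ratio of knockout over wild type for 6 members on the P1 liver array (left) and the E14 Dlk+ array (right), as reported (black diamonds) and under 6 other treatments of background and scaling (coloured points). Dashed lines mark 1.5-fold. Mmp11 stays below the lower line in P1 liver under each of them, and Adamts1 stays above the upper line in E14 cells.

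Inhibitors, activators and substrates of the family were taken from lists. Of 13 inhibitor genes 10 were readable on each array. In P1 liver 1 of them was at least 1.5-fold lower and 0 higher (median -0.27), against 4.12% and 2.84% of all readable genes. In E14 cells 0 were changed by that size (median 0.00), against 0.22% lower and 0.307% higher. The lists are short, so such counts rest on few genes. The lower gene was Timp3, whose matrix-bound product inhibits MMPs, ADAM17 and aggrecanases, with signals of 299 in the knockout and 522 in the wild type in P1 liver (-1.38), and 106 in the knockout and 50.3 in the wild type in E14 cells (0.04). Reck, a membrane-anchored inhibitor, had -0.25 and 0.10.

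Of 22 activators and maturation partners, 19 were readable on each array. In P1 liver 2 were at least 1.5-fold lower and 0 higher (median -0.06), against 4.12% and 2.84% of all readable genes. In E14 cells 0 changed in either direction (median 0.01), against 0.22% lower and 0.307% higher. The lower ones were Rhbdf1, an iRhom that escorts ADAM17 out of the endoplasmic reticulum, at -0.76 (0.11 in E14 cells), and Tspan33, a tetraspanin that binds ADAM10, also at -0.76 (-0.26 in E14 cells). Furin, which removes the inhibitory prodomain of many of these proteases, had 0.01 and -0.01.

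Most of the ADAMTS substrates are matrix proteins. Over all readable genes, 4.12% were at least 1.5-fold lower and 2.84% higher in P1 liver, and 0.22% and 0.307% in E14 cells. Of 18 ADAMTS substrate genes 16 were readable in P1 liver, 6 of them at least 1.5-fold lower and 0 higher (median -0.25): Col3a1 (-1.93), Col1a2 (-1.82), Fbn1 (-1.70), Bgn (-1.36), Nid1 (-0.80) and Col5a1 (-0.79). In E14 cells 15 were readable, and Dcn (0.86) and Col5a1 (0.61) were at least 1.5-fold higher (median 0.09). These are collagen, proteoglycan, microfibril and basement membrane genes, and Col1a1, Col1a2, Col3a1 and Dcn are also in the stellate and fibroblast list. Vcan, the versican gene cut by Adamts1 and Adamts15, had signals of 97.8 in the knockout and 61.3 in the wild type in P1 liver (-0.04), and 113 in the knockout and 55.0 in the wild type in E14 cells (-0.01).

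Of 27 ADAM substrate genes on the array, 21 were readable on each array. In P1 liver App (-1.13), Prnp (-1.08) and Epcam (-1.23) were at least 1.5-fold lower and 0 were higher (median -0.02). The shares of all readable genes were 4.12% and 2.84%. In E14 cells 0 were changed by that size (median 0.01), against 0.22% lower and 0.307% higher over all readable genes. Notch1, cut by ADAM10, had -0.37 in P1 liver and 0.35 in E14 cells, and Dlk1, shed by ADAM17, had 0.11 and -0.03. The part of the lung, endothelial and fibroblast markers in the lower P1 values of these lists was not tested.

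**Figure D5:**
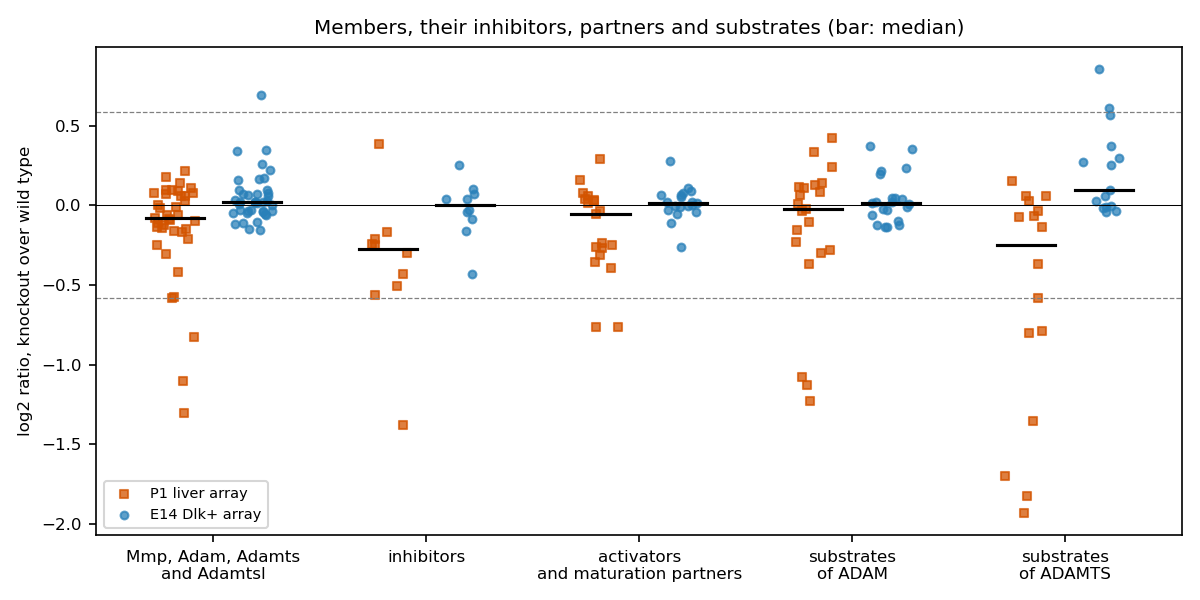
Log2 ratio of knockout over wild type for the readable genes of the protease family and of 4 lists of inhibitors, activators and substrates, with squares for the P1 liver array and circles for the E14 Dlk+ array. Black bars are medians and dashed lines mark 1.5-fold. The ADAMTS substrates spread farthest down in P1 liver, to -1.93, and reach 0.86 in E14 cells.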

How the data were processed

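Each array was hybridised with 2 pools of total RNA, which were amplified to amino allyl RNA before dye coupling, per the labels' protocols. The scanner files deposited by the authors hold spot intensity and local background intensity at 635 nm (Cy5, wild type) and 532 nm (Cy3, knockout), per the file headers, not normalised. The authors' deposited value table holds log2 values of knockout over wild type per the labels, and these followed the blank-subtracted channel ratio centred on the median (Pearson correlation 1.00 over 17348 probes for P1 and 17336 for E14), so scale, centring and direction are known. Column medians were -2.74e-05 (P1) and 7.21e-07 (E14).

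Here limma 3.58.1 in R 4.3.3 was used: normexp with an offset of 50 on spot signals, local background unused, loess with control spots at weight 0, and means over spots and probes, a gene being readable where any of its probes was. The offset shrinks ratios of dim genes. Blank thresholds used 2736 blank spots with 5 percent trimmed at each end. The procedure was tested on simulated arrays, with known folds planted in bright probes only, so that test does not cover dim genes. Of 16631 annotated probes, 12622 symbols were current, 3947 were updated with a RefSeq table (GRCm38.p6, used for names and neighbours) and 62 kept. The files name no genome build, so the only coordinates are those of the RefSeq promoter windows.

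Bounds came from channel values after loess and Aquantile, set against the lowest signal among detectable probes or the probe's own, whichever was higher. They carry no error and are open to dye bias. Members and lists were chosen with earlier results of these data known. Signals are given for members at least 1.5-fold changed, the 3 brightest of each class and 8 fixed by name; others were chosen after their values were seen. Alternatives covered background, scaling, detection, probes, flags and symbols.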

Additional observations from a re-analysis of the deposited data

Results flagged for a closer look

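Adamts1 was the only member at least 1.5-fold changed in opposite directions on the 2 arrays, lower in the knockout on the P1 array (-0.83) and higher on the E14 array (0.70), a difference of -1.52. The difference was not tested, since each array stands alone.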

How the results depend on the processing

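No paired analysis was possible because each comparison had 1 array. Under the 11 alternatives the median ratio of the members lay between -0.27 and -0.04 in P1 liver and between 0.01 and 0.09 in E14 cells. The median of all genes lay between -0.03 and 0.05 in P1 liver and between -0.02 and 0.28 in E14 cells. The median difference between arrays (-0.10 as reported) lay between -0.38, with the local background subtracted, and -0.09, and was -0.29 in the authors' deposited values. With median centring it was -0.22, where the medians of all genes were 0.05 in P1 liver and 0.28 in E14 cells. Numbers of members readable in both channels were 36 to 38 on the P1 array and 38 to 39 on the E14 array. Counts past 1.5-fold changed more. In the authors' deposited values 11 members were lower and 3 higher on the P1 array (12.2% and 11.9% of all genes), and 4 were higher on the E14 array (5.38%). With the local background subtracted, 10 were lower and 2 higher on the P1 array (14.8% and 18.4%), and 4 lower and 6 higher on the E14 array (7.74% and 14.2%). With an offset of 10, 6 were lower on the P1 array (7.24%). With normexp on the local background, 1 was lower on the P1 array, Mmp11 (3.59%), and 2 were higher on the E14 array (3.83%). With median centring 5 were higher on the E14 array (24.8%), where the median of all genes was 0.28. The cause of these shifts was not tested. Of the readable members, 16 in P1 liver and 17 in E14 cells lay under 1.5 times the detection threshold. The signs of the 4 ratios past 1.5-fold were the same under all 9 alternatives run on single genes, of which only the 6 of background and scaling could change them.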
